A study of Mus musculus with 32 samples.

Results

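Matrix metalloproteinases (Mmp genes) and the tissue inhibitors of metalloproteinases (Timp genes) were followed in mouse quadriceps muscle with and without collagen VI. The set held 10 of the 53801 gene IDs listed, chosen by name: 6 proteases (Mmp2, Mmp3, Mmp9, Mmp12, Mmp14 and Mmp19) and 4 inhibitors (Timp1, Timp2, Timp3 and Timp4). The rule uses names only, but the set was chosen with earlier results of these libraries known. RNA was sequenced from 32 mice, 1 library a mouse, in 8 groups of 4. The groups were wild type (WT) or homozygous Col6a2-/- mice, female or male, at 5 or 25 weeks of age. Col6a2 encodes a chain of collagen VI, a microfibrillar protein of the matrix around muscle fibres. Per the labels, the knockout allele (Col6a2 tm1(KOMP)Vlcg) arose in C57BL/6N and was bred onto C57BL/6J for 5 generations, and WT mice came from the same heterozygous breeders. No cell type restricts the deletion in the labels, and the RNA came from frozen sections of whole muscle, so every value is a mixture over fibres, connective tissue, vessels and immune cells.

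Metalloproteinases are zinc enzymes that are made as inactive precursors and cut collagens, elastin, proteoglycans and cell-surface proteins once the prodomain is removed. Timps bind the active site of the mature enzymes. The balance of both groups sets how fast matrix is turned over in muscle growth, inflammation and repair, although RNA levels do not report precursor activation or inhibitor binding. Some members also act on each other, since Mmp14 at the cell surface activates proMmp2 with Timp2 as a bridge.

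Levels are given as TPM, the abundance of a transcript per unit of length as a share of all transcripts in a library, a scale that accounts for transcript length and can be compared between genes. Changes are differences in mean log2(TPM + 1), Col6a2-/- minus WT with both sexes weighted equally, which understates the change of genes near 1 TPM. A gene was called when its adjusted p in limma (Benjamini-Hochberg over 12817 genes, two-sided) was below 0.05. Each p-value sets a difference against the spread between mice within groups, estimated over all 8 groups together. Col6a2 itself ranged from 19.9 to 51.2 TPM in WT libraries at 5 weeks and from 6.60 to 13.6 TPM at 25 weeks, and it was at most 0.171 TPM in any Col6a2-/- library. Muscle fibre markers summed to at least 13740 TPM in every library. Mitochondrial genes took 31.9 to 46.9% of all TPM, and genes with names that begin with Rn7s took 20.8 to 30.5%. One library stood apart for the genes described here: in the group of 5-week Col6a2-/- females, female 4 was lowest in 8 of the 10 genes and highest in Timp3 and Timp4. The markers of macrophages (111.5 TPM), fibro-adipogenic progenitors (430 TPM) and satellite cells (11.3 TPM) were also lowest there among the 5-week Col6a2-/- females, and the changes over both sexes, the sums and the list counts at 5 weeks are given with and without it. Without it, 34.6% of all tested genes were called higher at 5 weeks, beside 23.2% with all libraries.

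Of the 10 genes, 9 reached 1 TPM in at least 4 libraries and entered the test. Mmp12 reached it in 2 libraries, both Col6a2-/-, and was tested in a fit without that filter over 32958 genes. Mmp3 passed mainly through Col6a2-/- libraries, with 9 of them and 2 WT libraries at 1 TPM or more. In WT muscle at 5 weeks, the median levels ran from Timp3 (26.1 TPM), Mmp2 (25.6 TPM) and Timp2 (22.6 TPM) through Mmp14 (5.15 TPM) and Timp4 (4.73 TPM) to Timp1 (1.34 TPM), Mmp19 (1.11 TPM), Mmp3 (0.613 TPM), Mmp9 (0.570 TPM) and Mmp12 (0.0173 TPM). Ranges of the first 3 overlapped, as did those of Mmp14 and Timp4, of Timp1 and Mmp19, and of Mmp3 and Mmp9. In Col6a2-/- muscle at 5 weeks the order of medians began with Mmp2 (45.9 TPM), and Timp1 (8.04 TPM) stood above Timp4 (4.92 TPM). Ranges overlapped here too. In female 4, Timp3 (32.9 TPM) stood above Mmp2 (22.4 TPM), and Timp4 (9.22 TPM) above Timp1 (3.15 TPM). The plot of levels by group shows all 320 values.

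**Figure D1:**
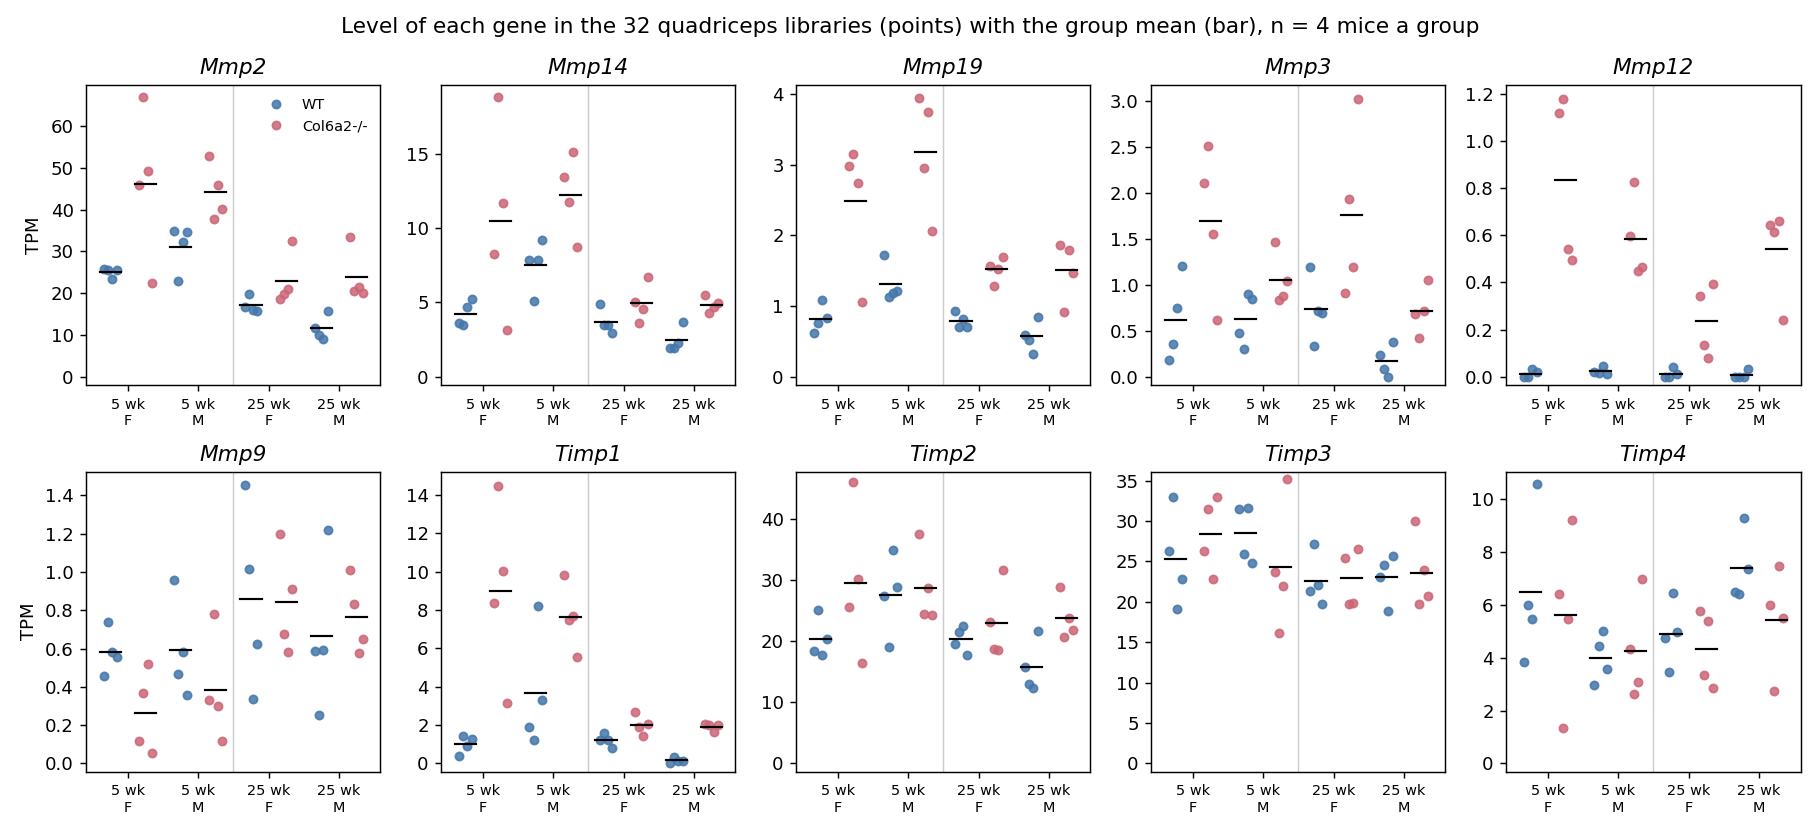
Level in TPM (linear axis) of each of the 10 genes in each library, for WT and Col6a2-/- mice split by age in weeks (wk) and sex (F, M). Points are single mice and black bars are means of 4 mice. Timp1 in Col6a2-/- muscle at 5 weeks lay between 3.15 and 14.5 TPM, and Mmp12 was above every WT library in all Col6a2-/- libraries of both ages.

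At 5 weeks, Mmp2, Mmp3, Mmp14, Mmp19 and Timp1 were higher in Col6a2-/- muscle and none of the tested members was lower. The count is 5 of 9, beside 23.2% of all tested genes called higher and 25.4% called in either direction. At 25 weeks the count was 4 of 9 (Mmp2, Mmp3, Mmp19 and Timp1, all higher), beside 4.47% of all tested genes called higher and 4.7% in either direction. The median change of the 9 members was 0.53 at 5 weeks and 0.56 at 25 weeks, and the median over all tested genes was 0.145 and 0.0823. That shift of all genes was -0.012 at 5 weeks after median-of-ratios scaling, where 47.9% of calls were higher, beside 91.6% as deposited. Such scaling centres the typical gene by design, so it cannot show whether the shift depends on scaling. Scaling without mitochondrial and Rn7s genes does not force this. It gave a shift of 0.138 at 5 weeks, with 92.4% of calls higher, and of 0.0304 at 25 weeks. Relative to the deposited shift of 0.145 at 5 weeks, the 5 called members were higher by 0.39 (Mmp3) to 1.501 (Timp1). All 5 kept their direction under each scaling tried. All 5 stayed called under each scaling, except that Mmp3 lost its call under quantile normalization at 5 weeks (adjusted p = 0.0865 in limma).

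**Figure D2:**
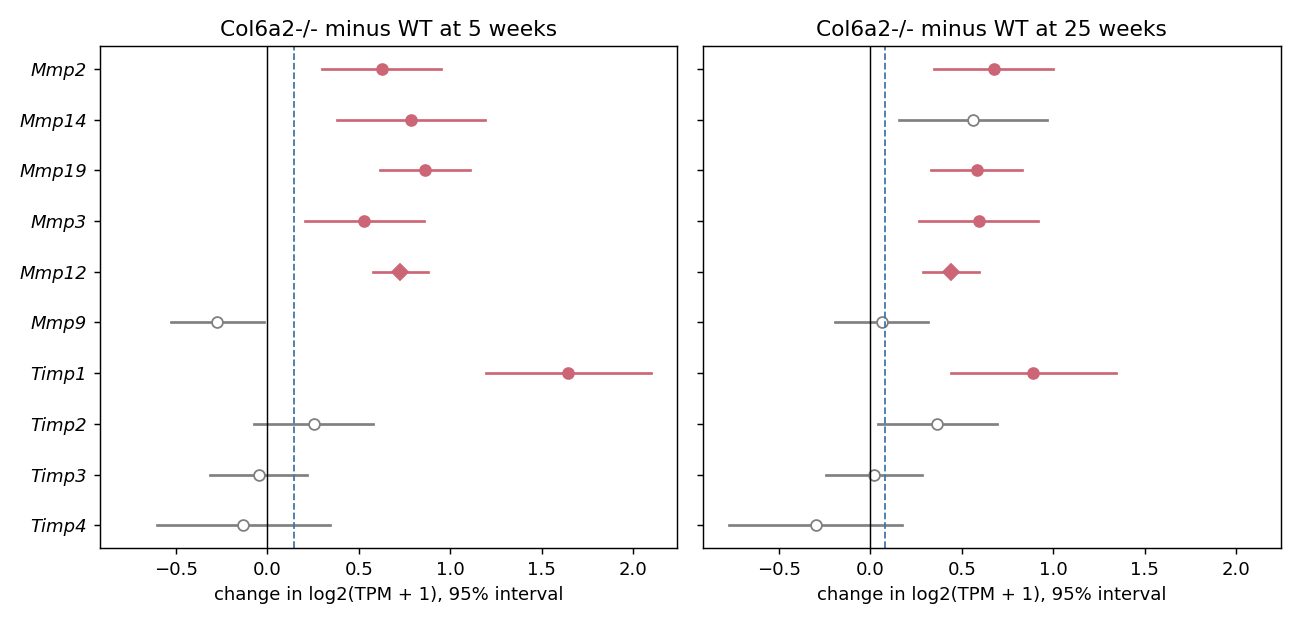
Change in log2(TPM + 1), Col6a2-/- minus WT, at 5 weeks (left) and 25 weeks (right), with 95% intervals from limma over 8 against 8 mice. Filled circles were called, open circles were not, diamonds mark Mmp12 from the fit without a filter, and the dashed line is the median over all tested genes (0.145 and 0.0823). Timp1 lay farthest to the right at both ages.

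Mmp2, gelatinase A, is a secreted enzyme that cuts denatured collagen and basement membrane collagen. It lies on mouse chromosome 8 (ENSMUSG00000031740, chr8:92827291-92853420, plus strand, GRCm38). At 5 weeks its lowest, median and highest levels were 22.9, 25.6 and 34.7 TPM in WT and 22.4, 45.9 and 66.9 TPM in Col6a2-/- muscle. Of 8 Col6a2-/- mice, 7 exceeded the mean of WT mice of their own sex, and the exception was female 4 at 22.4 TPM. The change was 0.63 (SE 0.159, adjusted p = 0.00511 in limma), and 0.78 without female 4. At 25 weeks the levels were 9.13, 15.7 and 19.8 TPM in WT and 18.6, 20.7 and 33.4 TPM in Col6a2-/- muscle, so that the ranges met only near 19 TPM. The change was 0.67 (SE 0.159, adjusted p = 0.0133 in limma), with 8 of 8 Col6a2-/- mice above the WT mean of their sex. In bulk RNA, more or fewer cells of a type and more or less RNA per cell cannot be told apart, for this and for all results that follow.

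Mmp14, the membrane-type enzyme that activates proMmp2, lies on chromosome 14 (ENSMUSG00000000957, chr14:54431612-54445364, plus strand). Its 5-week levels were 3.48, 5.15 and 9.20 TPM (lowest, median, highest) in WT and 3.14, 11.7 and 18.8 TPM in Col6a2-/- muscle. Female 4 again gave the lowest value, and the other 7 Col6a2-/- mice were above the WT mean of their sex. It rose by 0.79 (SE 0.198, adjusted p = 0.00476 in limma), and by 0.996 without female 4. At 25 weeks it ranged from 1.93 to 4.91 TPM in WT and from 3.58 to 6.71 TPM in Col6a2-/- muscle, and the change of 0.56 (SE 0.198) was not called (adjusted p = 0.0998 in limma). Without the 5-week female 4, which enters that test only through the shared spread, the same 0.56 had an adjusted p of 0.0163 in limma. Of the 32 fits that left out 1 library, 2 called Mmp14 at 25 weeks, this one included, and so did the fit with array weights.

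Mmp19, a secreted enzyme of wide tissue expression, lies on chromosome 10 (ENSMUSG00000025355, chr10:128790910-128800824, plus strand). Its 3' end overlaps Tmem198b on the opposite strand over 789 bases, and Tmem198b was itself at 0.659 to 2.05 TPM, so that the division of reads between both genes is uncertain where strand was not used. Mmp19 lay at 0.616, 1.11 and 1.72 TPM in WT and at 1.06, 2.96 and 3.95 TPM in Col6a2-/- muscle at 5 weeks. The ranges overlapped only through female 4, at 1.06 TPM. The change was 0.86 (SE 0.121, adjusted p = 6.65e-06 in limma), and 0.98 without female 4 (adjusted p = 2.03e-08 in limma). At 25 weeks the levels were 0.323, 0.702 and 0.931 TPM in WT and 0.913, 1.55 and 1.87 TPM in Col6a2-/- muscle, with a change of 0.58 (SE 0.121, adjusted p = 0.00576 in limma). With a pseudocount of 0.1 the changes were 1.30 and 1.07. All 8 Col6a2-/- mice of each age were above the WT mean of their sex.

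Mmp3, a stromelysin, and Mmp12, the macrophage metalloelastase, lie in one cluster on chromosome 9 (Mmp3, ENSMUSG00000043613, chr9:7445822-7455975; Mmp12, ENSMUSG00000049723, chr9:7344381-7369499; both plus strand). Both were low and both were higher in Col6a2-/- muscle, and the sequences before their start sites are shown because these were the members whose promoter window held both of the short motifs searched. The stretches run from 120 bases before to 30 bases from the start in RefSeq (GRCm38.p6), plus strand, Mmp3 at chr9:7445702-7445851 and the second listed start of Mmp12 at chr9:7347254-7347403. Capitals mark the AP-1 letters TGANTCA, which read the same on both strands, and the TATA letters TATAAA, searched on both strands.
Mmp3: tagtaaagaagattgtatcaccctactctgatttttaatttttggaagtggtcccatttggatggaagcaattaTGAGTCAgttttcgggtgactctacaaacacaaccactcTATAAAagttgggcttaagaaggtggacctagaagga
Mmp12: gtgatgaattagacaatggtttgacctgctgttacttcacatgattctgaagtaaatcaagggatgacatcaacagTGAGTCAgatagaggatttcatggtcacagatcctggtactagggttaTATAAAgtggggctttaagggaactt
The AP-1 letters begin 46 bases before the start of Mmp3 and 44 bases before that of Mmp12. The TATA letters begin 7 bases before the start of Mmp3 and at base 5 of Mmp12, counted from 1 at its start. The window at the first listed start of Mmp12 held neither motif. Of the 10 genes, 7 were matched to 8 windows of 300 bases (250 before and 50 from the start), and the letters of AP-1 and of TATA were found in these 2 genes. Over all 32851 windows of that length, 7.81% held the AP-1 letters and 13.6% the TATA letters. A match is a description of the letters and not a measured binding site. Mmp2, Mmp9 and Mmp19 had no entry.

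Mmp3 lay at 0.179, 0.613 and 1.201 TPM in WT and at 0.613, 1.26 and 2.51 TPM in Col6a2-/- muscle at 5 weeks, a change of 0.53 (SE 0.159, adjusted p = 0.0157 in limma). Without Col6a2-/- female 4 it was 0.64 (adjusted p = 0.00144 in limma). At 25 weeks it lay at 0, 0.353 and 1.19 TPM in WT and at 0.426, 0.984 and 3.03 TPM in Col6a2-/- muscle, and it rose by 0.59 (SE 0.159, adjusted p = 0.0289 in limma). The genotypes overlapped at both ages. The 25-week call was lost in the fit without a filter (the same change, adjusted p = 0.0848 in limma) and after quantile normalization (0.48, adjusted p = 0.0507 in limma). With a pseudocount of 0.1 the changes of Mmp3 were 1.07 at 5 weeks and 1.45 at 25 weeks, both called. It was also lost in 8 of the 32 fits that left out 1 library: these were WT females 2 and 4, WT males 2 and 3, Col6a2-/- female 4 and Col6a2-/- males 1, 3 and 4, all of 25 weeks. The 0.0848 was the highest adjusted p over all alternatives.

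Mmp12 was the member whose genotypes did not overlap. WT libraries at 5 weeks were at 0, 0, 0.0306 and 0.0183 TPM in females and at 0.0199, 0.0162, 0.0469 and 0.0134 TPM in males. Col6a2-/- libraries were at 1.12, 1.18, 0.542 and 0.493 TPM in females and at 0.595, 0.827, 0.448 and 0.464 TPM in males. Mmp12 was at or near 0 in WT muscle and below 1.2 TPM in every library, with a median read depth over the gene (the deposited coverage) of 0.263 over all 32 libraries. At 25 weeks 5 of 8 WT libraries were listed at 0 and the highest was at 0.0397 TPM, while Col6a2-/- females were at 0.341, 0.135, 0.0776 and 0.391 TPM and males at 0.642, 0.614, 0.662 and 0.240 TPM. In the fit without a filter, Mmp12 was higher by 0.73 at 5 weeks (SE 0.0741, adjusted p = 2.76e-07 in limma) and by 0.44 at 25 weeks (SE 0.0741, adjusted p = 0.00345 in limma). Leaving out Col6a2-/- female 4 of 5 weeks, a fit added after the data were seen, gave 0.77 at 5 weeks (adjusted p = 3.55e-08 in limma). In the fit with all libraries, 10.4% of genes at 5 weeks and 0.968% at 25 weeks were called higher. No fold is given, because 2 of 8 WT libraries at 5 weeks and 5 of 8 at 25 weeks were at 0. Among the 12817 genes that passed the filter, which leaves Mmp12 out, genotypes did not overlap with Col6a2-/- higher for 1.18% at 5 weeks and 0.663% at 25 weeks. None of the 9 tested members did so at either age.

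Mmp9, gelatinase B, an enzyme typical of neutrophils and macrophages, lies on chromosome 2 (ENSMUSG00000017737, chr2:164940780-164955850, plus strand). At 5 weeks it lay at 0.358, 0.570 and 0.957 TPM in WT and at 0.0555, 0.317 and 0.781 TPM in Col6a2-/- muscle. Of 8 Col6a2-/- mice, 1 exceeded the mean of WT mice of its own sex, but the difference of -0.27 (SE 0.124, 95% interval -0.53 to -0.02) was not called (adjusted p = 0.103 in limma). Without female 4 it was -0.23 (adjusted p = 0.151 in limma). It passed the threshold with a pseudocount of 0.1 (-0.87, adjusted p = 0.0437), after median-of-ratios scaling (adjusted p = 0.0429) and after quantile normalization (adjusted p = 0.00620), all in limma. At 25 weeks both genotypes lay between 0.255 and 1.45 TPM, with a difference of 0.06 (SE 0.124). The other gelatinase and the other protease members therefore had positive differences at 5 weeks where that of Mmp9 was negative. Of 9 neutrophil markers, Ly6g was at 0 in all 32 libraries and 2 passed the filter, S100a8 (at most 2.06 TPM) and S100a9 (at most 2.86 TPM), with 0 called for genotype at either age. The median sum of the 9 was 0.667 TPM in WT and 1.47 TPM in Col6a2-/- muscle at 5 weeks and 0.969 and 2.05 TPM at 25 weeks, with a highest value of 5.97 TPM. Its part in the level of Mmp9 was not tested.

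Macrophage markers were also higher in Col6a2-/- muscle. All 10 of 10 were higher in Col6a2-/- muscle at 5 weeks and 8 of 10 at 25 weeks, beside 23.2% and 4.47% of all tested genes called higher. Their sum ran from 64.8 to 110.5 TPM in WT and from 111.5 to 379.4 TPM in Col6a2-/- libraries at 5 weeks. At 25 weeks it ran from 44.0 to 120.9 TPM and from 118 to 219.4 TPM. Fibro-adipogenic progenitor markers were higher for 6 of 9 genes at both ages, with sums of 374.4 to 541.8 TPM in WT and 430 to 753.3 TPM in Col6a2-/- muscle at 5 weeks, and of 283.9 to 546 TPM and 531.6 to 822.1 TPM at 25 weeks. Gsn was the largest part of these sums, so they largely follow that gene. It averaged 267.9 TPM in WT and 311.2 TPM in Col6a2-/- muscle at 5 weeks, which was not called. At 25 weeks it averaged 282.2 and 464.1 TPM and was called. Satellite cell and myoblast markers were higher for 4 of 4 tested genes at 5 weeks and for 0 at 25 weeks, and no tenocyte marker of 7 was called at either age. Itgam, Myf5 and Mymk averaged below 1 TPM in WT and above it in Col6a2-/- muscle at 5 weeks. These markers may have passed the filter mainly through Col6a2-/- libraries. At 5 weeks, 3 of 7 endothelial markers (Pecam1, Cdh5 and Tie1) and 2 of 7 mural and smooth muscle markers (Acta2 and Pdgfrb) were higher, and 2 of 8 muscle fibre markers were lower (Ckm by 0.33 and Myh4 by 0.43), with 0 called in these sets at 25 weeks. Over all 12817 tested genes, 23.2% were called higher and 274 genes lower at 5 weeks, and 4.47% higher and 30 genes lower at 25 weeks. No marker count was tested against these shares. None of the 4 tested Schwann cell markers or the 2 tested bone and cartilage markers was called at either age. Without Col6a2-/- female 4 of 5 weeks, a count added after the data were seen, the lowest 5-week Col6a2-/- sum was 212.7 TPM for macrophage, 535.8 TPM for fibro-adipogenic and 20.3 TPM for satellite cell and myoblast markers. The counts called higher were then 10 of 10, 6 of 9 and 4 of 4 for these sets, 4 of 7 endothelial, 2 of 7 mural and smooth muscle, 1 of 7 tenocyte, 1 of 2 bone and cartilage and 0 of 4 Schwann cell markers, and 2 of 8 muscle fibre markers were lower. In that fit 34.6% of all tested genes were called higher, and 313 of 12813 were called lower. No macrophage or fibro-adipogenic marker was at 0 in all libraries. Their part in the changes of the Mmp and Timp genes was not tested.

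Timp1, a secreted inhibitor known to be induced in injured and inflamed tissue, had the largest difference in log2(TPM + 1) of the 10 genes at both ages, on a scale that understates Mmp12 because its WT levels were at or near 0. It lies on the X chromosome (ENSMUSG00000001131, chrX:20870166-20874735, plus strand), within Syn1 on the opposite strand, which was at 0.0645 TPM or less. At 5 weeks, WT females were at 0.403, 1.42, 0.918 and 1.26 TPM and WT males at 1.88, 1.24, 8.24 and 3.32 TPM. Col6a2-/- females were at 8.36, 14.5, 10.1 and 3.15 TPM and Col6a2-/- males at 9.85, 7.50, 7.71 and 5.53 TPM. Within females the genotypes did not overlap, and in males a single WT mouse, male 3 at 8.24 TPM, reached into the Col6a2-/- range. The change was 1.65 (SE 0.221, adjusted p = 3.54e-06 in limma), and it was 1.83 without Col6a2-/- female 4 and 1.85 without WT male 3. This is about 3.13-fold on the log2(TPM + 1) scale.

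At 25 weeks, Timp1 was at 1.23, 1.61, 1.24 and 0.792 TPM in WT females and at 0, 0.358, 0.147 and 0.141 TPM in WT males. Col6a2-/- females were at 2.66, 1.92, 1.42 and 2.08 TPM and males at 2.06, 2.03, 1.62 and 2.01 TPM. WT males were thus lowest, and the females of the genotypes overlapped. The change over both sexes was 0.89 (SE 0.221, adjusted p = 0.0180 in limma), and it missed the threshold in the fit without a filter (adjusted p = 0.0601). The change at 25 weeks was smaller than that at 5 weeks by 0.76 (SE 0.313), and this difference was not called (unadjusted p = 0.0223, adjusted p = 0.547 in limma). With a pseudocount of 0.1 the changes were 2.17 at 5 weeks and 1.92 at 25 weeks.

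None of the other inhibitors was called for genotype at either age. Timp2, which inhibits Mmp2 and also helps Mmp14 to activate it, lies on chromosome 11 (ENSMUSG00000017466, chr11:118301069-118355740, minus strand). Cep295nl, inside it on the same strand, was at most 0.859 TPM. Timp2 was at 17.7, 22.6 and 34.9 TPM in WT and 16.4, 27.1 and 46.0 TPM in Col6a2-/- muscle at 5 weeks, a difference of 0.25 (95% interval -0.07 to 0.58, adjusted p = 0.239 in limma). Without female 4 the difference was 0.37 and was called (adjusted p = 0.0461 in limma), whereas after median-of-ratios scaling it was 0.05 (adjusted p = 0.803 in limma). At 25 weeks it was at 12.3, 18.6 and 22.5 TPM in WT and 18.6, 22.5 and 31.5 TPM in Col6a2-/- muscle, a difference of 0.37 (95% interval 0.04 to 0.69) that was not called (adjusted p = 0.196 in limma), although it was with array weights (adjusted p = 0.0371 in limma).

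Timp3, which is bound to the matrix and also inhibits ADAM proteases, lies on chromosome 10 (ENSMUSG00000020044, chr10:86300372-86349506, plus strand) within Syn3 on the opposite strand (at most 0.125 TPM). At 5 weeks it was at 19.1, 26.1 and 33.0 TPM in WT and 16.2, 25.0 and 35.2 TPM in Col6a2-/- muscle, and at 25 weeks at 18.9, 22.6 and 27.2 TPM and 19.8, 22.3 and 29.96 TPM. The differences were -0.05 (95% interval -0.31 to 0.22) and 0.02 (95% interval -0.24 to 0.28), and their sign turned under several alternatives.

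Timp4, an inhibitor known from heart and skeletal muscle, lies on chromosome 6 (ENSMUSG00000030317, chr6:115241892-115252205, minus strand) within Syn2 on the opposite strand (at most 0.817 TPM). It was at 2.97, 4.73 and 10.6 TPM in WT and 1.35, 4.92 and 9.22 TPM in Col6a2-/- muscle at 5 weeks, and at 3.46, 6.43 and 9.30 TPM and 2.75, 5.45 and 7.47 TPM at 25 weeks. The ranges overlapped at both ages, with 2 of 8 Col6a2-/- libraries below the lowest WT library at 5 weeks and 3 of 8 at 25 weeks. The differences were -0.13 (95% interval -0.60 to 0.34) and -0.30 (95% interval -0.77 to 0.17), neither called, and the sign of the first turned when Col6a2-/- female 2 of 5 weeks, the mouse with 1.35 TPM, was left out (0.09). Over all alternatives the 25-week difference ran from -0.42 to -0.18 and was never called. Without female 4 the 5-week difference was -0.27, and that of Timp3 was -0.08, neither called.

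**Figure D3:**
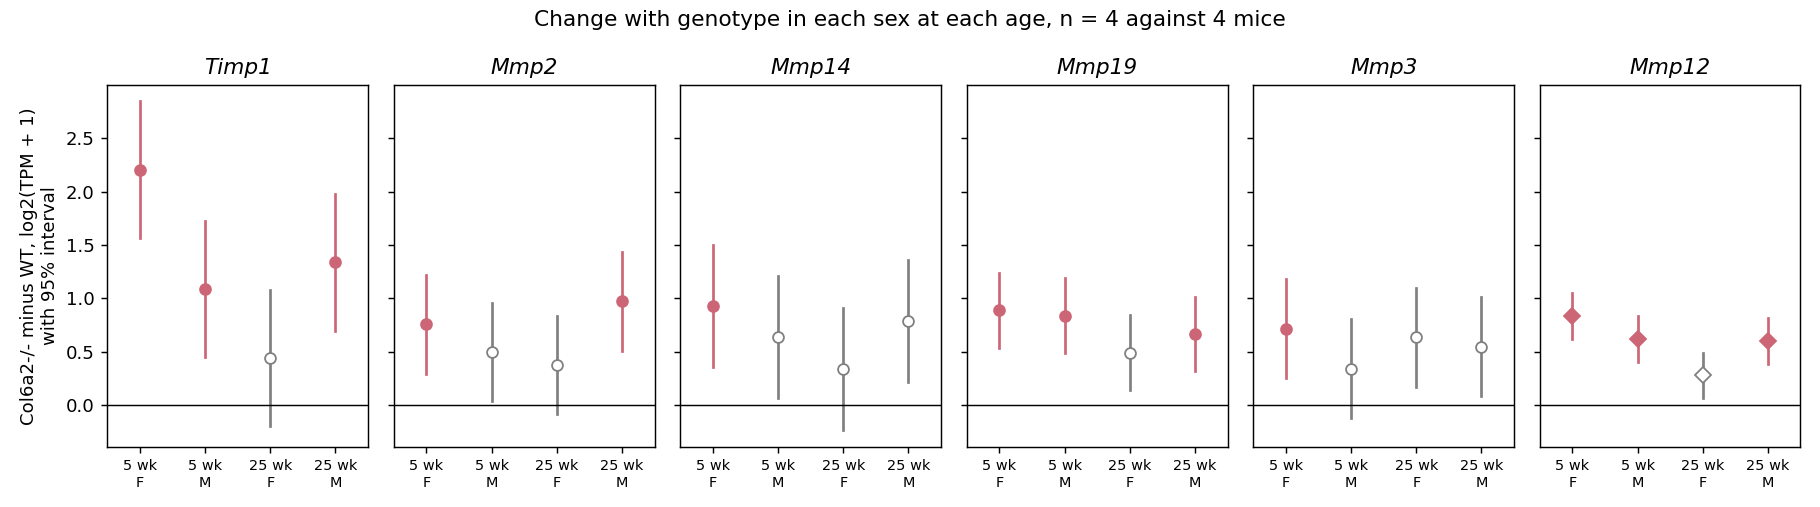
Change in log2(TPM + 1), Col6a2-/- minus WT, for 4 against 4 mice of each sex and age, with 95% intervals from limma, for the 6 members that were called higher at 5 weeks. Filled markers were called and open ones were not, and diamonds mark Mmp12 from the fit without a filter. The points run from 0.28 for Mmp12 in 25-week females to 2.20 for Timp1 in 5-week females, and the 4 members not plotted include negative differences, such as -0.43 for Timp4 in 25-week males.

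Within single sexes, the count of called members was 5 of 9 in 5-week females (Mmp2, Mmp3, Mmp14, Mmp19 and Timp1, beside 12.9% of all genes), 2 of 9 in 5-week males (Mmp19 and Timp1, beside 5.03%), 0 of 9 in 25-week females (beside 0.0078%) and 3 of 9 in 25-week males (Mmp2, Mmp19 and Timp1, beside 3.03%). In 25-week females, 2 of these 9 had an unadjusted p below 0.05 in limma, namely Mmp3 and Mmp19. In the fit without a filter, Mmp12 was called in 5-week females, 5-week males and 25-week males, and in 25-week females its difference of 0.28 was not called (unadjusted p = 0.0132, adjusted p = 0.806 in limma). The Timp1 differences at 5 weeks were 2.20 (females) and 1.09 (males), and those at 25 weeks were 0.44 and 1.34. Those of Mmp2 were 0.76 (females) and 0.50 (males) at 5 weeks, followed by 0.38 and 0.97 at 25 weeks. The 0.38 was 0.20 without Col6a2-/- female 4 of 25 weeks. The point estimates of both genes were larger in females at 5 weeks and larger in males at 25 weeks, whereas those of Mmp3 were larger in females at both ages (0.72 and 0.34 at 5 weeks, 0.64 and 0.55 at 25 weeks).

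The test of the difference between sexes called none of the 9 members over both ages, beside 0.0156% of all genes, and none had an unadjusted p below 0.05 in limma. It also called none at 5 weeks alone or at 25 weeks alone, tests that were added after the data were seen. The largest of these differences was that of Timp1 at 5 weeks, which was smaller in males by 1.12 (SE 0.442, unadjusted p = 0.0173, adjusted p = 0.9998 in limma). The Timp1 intervals of 5-week females (1.56 to 2.85) and males (0.45 to 1.73) overlapped. Several calls within a sex were lost when 1 library was left out. Those of Mmp19 in both sexes at 5 weeks and of Timp1 in 5-week females were kept in all 32 such fits. Leaving out WT female 1 or 2, or Col6a2-/- female 1, 2 or 3, left 2 of 5 calls in 5-week females (Mmp19 and Timp1), and leaving out WT male 3 or Col6a2-/- male 1 left 0 of 3 in 25-week males, where leaving out WT male 1 or 2 left 1. The 5-week male call of Timp1 was lost without WT male 1, 2 or 4 or Col6a2-/- male 1, 2 or 3.

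Males and females were also set side by side over all genotypes and ages. No member was called, beside 3.05% of all genes. Mmp3 had the largest difference, lower in males by 0.38 (SE 0.113, unadjusted p = 0.00234, adjusted p = 0.0663 in limma). In 25-week WT mice, for example, Mmp3 was at 1.19, 0.334, 0.718 and 0.692 TPM in females and at 0.235, 0.0840, 0 and 0.373 TPM in males. It was called under 4 other settings, which are given with the processing, and in 4 of the 32 fits that left out 1 library.

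Several members were lower at 25 weeks than at 5 weeks. From 5 to 25 weeks in WT muscle, Mmp2 fell by 0.95 (SE 0.159), Timp1 by 0.81 (SE 0.221) and Mmp14 by 0.73 (SE 0.198), so that 3 of 9 members were called, all lower (adjusted p = 9.05e-05, 0.00928 and 0.00869 in limma). In either direction, 19.8% of all genes were called in that comparison. In Col6a2-/- muscle 4 members were lower at 25 weeks, Timp1 by 1.57, Mmp14 by 0.96, Mmp2 by 0.90 and Mmp19 by 0.57, and Mmp9 was higher by 0.46 (SE 0.124, adjusted p = 0.00548 in limma), beside 34.2% of all genes. Mmp12 was lower by 0.30 in the fit without a filter (adjusted p = 0.00563 in limma). Without the 5-week Col6a2-/- female 4, 5 members were called with age in WT muscle (Mmp19 and Timp2 in addition) and 6 in Col6a2-/- muscle (Timp2 in addition). The share of all genes called with age in that fit is not given here, so the added calls cannot be set beside it. For genotype at 5 weeks, the share of all genes called higher went from 23.2% to 34.6% in that fit.

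Some markers of cell types were also called with age. In Col6a2-/- muscle, 9 of 10 macrophage markers, 3 of 4 satellite cell and myoblast markers, 4 of 4 Schwann cell markers, 4 of 7 mural and smooth muscle markers, 3 of 7 endothelial markers and 2 of 7 tenocyte markers were lower at 25 weeks, and of 9 fibro-adipogenic markers 4 were lower and 1 was higher. Over all 12817 tested genes, 3695 were lower and 694 higher there, with 34.2% called in either direction. In WT muscle, 1 of 10 macrophage, 3 of 4 satellite cell and myoblast, 4 of 9 fibro-adipogenic, 1 of 4 Schwann cell, 3 of 7 mural and smooth muscle, 2 of 7 endothelial and 2 of 7 tenocyte markers were lower. Over all 12817 tested genes, 1963 were lower and 573 higher in WT muscle, with 19.8% called in either direction. No marker count was tested against these shares. In each genotype 1 of 8 muscle fibre markers and 1 of 2 tested bone and cartilage markers were lower, and 0 of 2 tested neutrophil markers were called. Their part in the age differences of the Mmp and Timp genes was not tested.

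Mmp9 thus went from a median of 0.317 TPM to 0.756 TPM in Col6a2-/- muscle while Mmp2, Mmp12, Mmp14 and Mmp19 fell. In WT muscle its medians were 0.570 and 0.609 TPM, a difference of 0.12 (SE 0.124) that was not called. Over all alternatives the WT difference ran from 0.048 to 0.27 and was never called (lowest adjusted p = 0.0655 in limma). The test of whether the genotype change itself depended on age called none of the 9 members, beside 0.492% of all genes. Of these 9, Timp1 alone had an unadjusted p below 0.05 in that limma test, and Mmp9 had the next largest estimate (0.34, SE 0.176, adjusted p = 0.755). In the fit without a filter, the change of Mmp12 at 25 weeks was smaller by 0.29 (SE 0.105), which was not called (unadjusted p = 0.0107, adjusted p = 0.522 in limma).

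Summed over the members, Mmp2 held 66.3 to 84.1% of the TPM of the 6 proteases in every library, so the protease sum follows that gene. The sum was 29.9, 32.1 and 46.2 TPM (lowest, median, highest) in WT and 27.7, 63.3 and 92.9 TPM in Col6a2-/- muscle at 5 weeks. The sum of the 4 inhibitors was 43.2, 57.7 and 79.8 TPM in WT and 50.8, 67.5 and 93.3 TPM in Col6a2-/- muscle. The median ratio of inhibitor to protease RNA was 1.63 in WT and 1.04 in Col6a2-/- muscle at 5 weeks, and 2.48 and 1.62 at 25 weeks. It ranged from 1.31 to 2.12 in WT and from 0.924 to 2.23 in Col6a2-/- libraries at 5 weeks, and from 1.86 to 3.48 and from 1.40 to 2.06 at 25 weeks, so that the genotypes overlapped at both ages. The 2.23 was that of Col6a2-/- female 4. Without it the ratio at 5 weeks lay at 0.924 to 1.37 with a median of 1.03, the protease sum at 52.4 to 92.9 TPM with a median of 66.3 TPM, and the inhibitor sum at 50.8 to 93.3 TPM with a median of 68.4 TPM. These ratios are descriptions of RNA, and no test was run on them.

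No test was run on the share of Timp1 in the inhibitor sum. Timp1 was a median of 2.37% of inhibitor TPM in WT and 12.8% in Col6a2-/- muscle at 5 weeks, and 1.32% and 3.66% at 25 weeks. The ranges overlapped, from 0.823 to 10.3% in WT and 5.11 to 15.5% in Col6a2-/- libraries at 5 weeks, and from 0 to 3.001% and 2.85 to 4.68% at 25 weeks. Without Col6a2-/- female 4 the 12.8% was 13.1%. Timp2 and Timp3 together held 76.8 to 92.4% of it in every library.

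**Figure D4:**
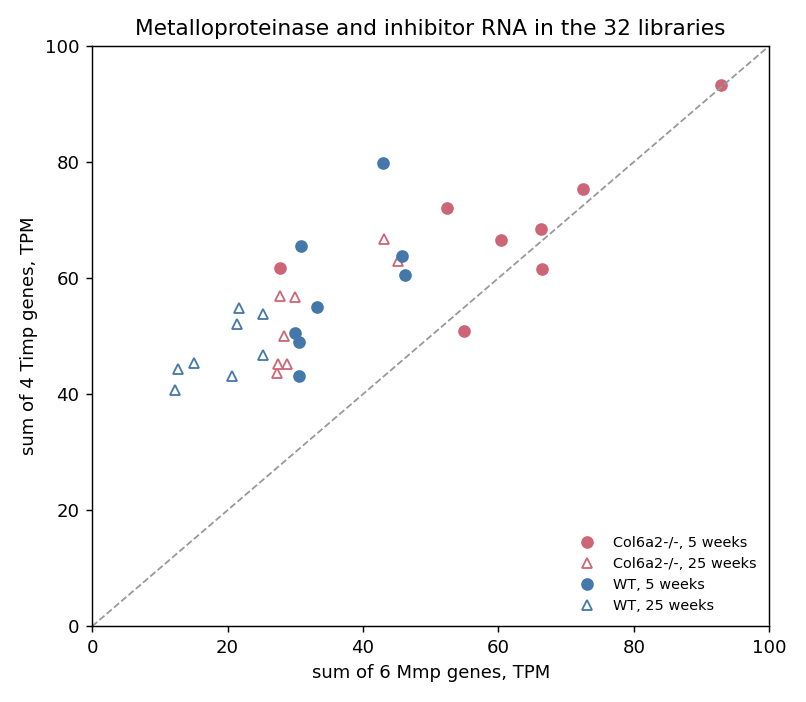
Sum of TPM over the 4 Timp genes (y axis) against the sum over the 6 Mmp genes (x axis), 1 point a library, by genotype and age. The dashed line marks equal sums. Most libraries lie above the line, and the 5-week Col6a2-/- libraries reach 92.9 TPM on the x axis, with a median ratio of 1.04.

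Genes whose profile over the 32 libraries was closest to that of a called member were found by the root mean square (RMS) difference between centred log2(TPM + 1) values, which gives 0 for identical profiles. For Mmp2 these were Tmem119 (0.187) and Ctsk (0.199), the latter encoding cathepsin K, a collagen-cutting cysteine protease, where the median over all genes was 0.583. For Mmp14 they were Thbs3 (0.225), a thrombospondin, and Sh3pxd2b (0.229), a podosome adaptor. For Mmp19 they were Tnfrsf1b (0.153), a receptor of tumour necrosis factor, and Gm5869 (0.159). For Mmp3 they were Cd83 (0.284) and Olfm1 (0.286), and for Timp1 they were Bgn (0.383), the proteoglycan biglycan, and Tubb6 (0.395), a tubulin. The medians over all genes were 0.616 for Mmp14, 0.438 for Mmp19, 0.4625 for Mmp3 and 0.965 for Timp1. Of the 10 genes named as closest, 10 were called higher at 5 weeks in limma and 8 at 25 weeks, beside 23.2% and 4.47% of all tested genes. All libraries of both genotypes entered the RMS measure, so closeness in part reflects genotype and age. The genes were picked for likeness to called members, so their calls follow in part from that choice and no conclusion is drawn from them.

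Other metalloproteinases were mostly too low to test. Of 17 genes, 5 passed the filter, and 1 was called at 5 weeks (Mmp16, a membrane-type enzyme, higher by 0.40, adjusted p = 0.00448 in limma, beside 23.2% of all tested genes called higher) and 0 at 25 weeks, where 0 of the 5 had an unadjusted p below 0.05. Mmp16 averaged 0.466 TPM (SD 0.178) in WT muscle at 5 weeks and 0.121 TPM (SD 0.0937) at 25 weeks. It passed the filter only through Col6a2-/- libraries, where it was higher, so its call is given as a description only. Without Col6a2-/- female 4 of 5 weeks, 4 of the 5 were called higher at 5 weeks, beside 34.6%. Their median change was 0.22 at 5 weeks and 0.13 at 25 weeks. Mmp1a, Mmp1b, Mmp7 and Mmp20 were at 0 in all 32 libraries. Among ADAM and ADAMTS proteases, 10 of 19 tested genes were higher at 5 weeks and 3 at 25 weeks, beside the 23.2% and 4.47% of all tested genes called higher, with none lower and medians of 0.37 and 0.23. Adam8 (0.94), Adam12 (0.70), Adamts17 (0.70), Adam19 (0.61), Adam17 (0.58) and Adam15 (0.56) changed most at 5 weeks. Adam8, Adam12 and Adamts17 averaged 0.229, 0.599 and 0.400 TPM in WT and 1.41, 1.64 and 1.31 TPM in Col6a2-/- muscle at 5 weeks. Adamts4 and Adamts8, also in that count, averaged 0.336 and 0.682 TPM in WT and 0.905 and 1.46 TPM in Col6a2-/- muscle. These genes may have passed the filter mainly through Col6a2-/- libraries, so their calls are given as a description only. Adam17, the sheddase that Timp3 inhibits, was also higher at 25 weeks (0.39, adjusted p = 0.0432 in limma).

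Among activators, other inhibitors and receptors of metalloproteinases, 8 of 19 tested genes were higher at 5 weeks and 4 at 25 weeks, beside the same 23.2% and 4.47% of all tested genes, with none lower and medians of 0.40 and 0.31. Plaur, in both counts, averaged 0.570 TPM in WT and 0.946 TPM in Col6a2-/- muscle at 5 weeks, so the same limit of the filter applies to it. Cd44, a hyaluronan receptor that docks metalloproteinases at the cell surface, was higher by 0.93 and 0.86, and Cd63, a tetraspanin that binds Timp1, by 0.60 at 5 weeks. Reck, a membrane inhibitor of metalloproteinases, differed by 0.16 (SE 0.142) and 0.22 (SE 0.142) and was not called, and it was named after its values were seen. Of 20 tested matrix substrates, 15 were higher at 5 weeks and 7 at 25 weeks, again beside 23.2% and 4.47%, with none lower and medians of 0.49 and 0.38. Bgn (1.09), Col3a1 (1.04), Col5a2 (1.002), Eln (0.98), Vcan (0.85) and Fn1 (0.82) changed most at 5 weeks, while Col1a1 (-0.11, SE 0.348) and Col1a2 (0.04, SE 0.262), the chains of type I collagen, were not called at 5 weeks and were named after their values were seen. At 25 weeks they differed by 0.63 and 0.59 and were not called either. Without Col6a2-/- female 4 of 5 weeks, the counts called higher at 5 weeks were 12 of 19 ADAM and ADAMTS proteases, 11 of 19 activators, inhibitors and receptors and 16 of 20 substrates, beside 34.6% of all tested genes. These lists were drawn up with earlier results of the same libraries known. The median sums of macrophage, fibro-adipogenic, satellite cell and endothelial markers were also higher in Col6a2-/- muscle at both ages, and that of muscle fibre markers was lower. Their part in the changes of these lists was not tested.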

How the data were processed

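Whole quadriceps RNA of 32 mice was sequenced paired-end after TruSeq RNA library preparation, per the labels' protocols. Per the submitters' processing notes, FastQC, MultiQC, Trimmomatic, HISAT2, SAMtools and StringTie were used with GRCm38 (mm10). The annotation and the strand setting are not given in the sources used here. The deposited tables list coverage, FPKM and TPM per gene, computed by the authors, per the file headers. TPM was used as deposited. The authors' coverage served only to show depth over low genes, and the deposited FPKM was not used. No read counts were used, so depth in reads is not known here, and no counting interval is given.

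limma 3.58.1 in R 4.3.3 was fitted to log2(TPM + 1) with 8 group means over all 32 libraries and a mean-variance trend, keeping genes that reached 1 TPM in 4 or more libraries, with Benjamini-Hochberg adjustment over all 12817 genes tested in each contrast. The 95% intervals use 28.8 degrees of freedom. The steps were tested on simulated data. All 10 members are described, the 2 genes closest in profile are named for each member called at 5 weeks, and at most 6 called genes are named from each list, those with the largest change at 5 weeks. The members and lists were chosen with earlier results of these data known. Locations were the same in GENCODE M21. Alternatives were a pseudocount of 0.1, no filter, a filter at 5 TPM, median-of-ratios scaling, scaling without mitochondrial and Rn7s genes, quantile normalization, array weights, a replicate block and leaving out each library. No 2 libraries held identical values.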

Additional observations from a re-analysis of the deposited data

Results flagged for a closer look

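Over 80 sets of 4 mice (10 genes in 8 groups), 7 had a lowest or highest mouse far from the other 3 on the log2(TPM + 1) scale, where chance alone gives about 1 in 20. In Mmp2, a 5-week WT female was lowest at 23.4 TPM, with the others at 25.5 to 25.7 TPM, and a 25-week Col6a2-/- male was highest at 33.4 TPM, with the others at 19.9 to 21.5 TPM. In Mmp12, a 25-week WT male was at 0.0344 TPM where the other 3 were listed at 0, and a 25-week Col6a2-/- male was lowest at 0.240 TPM, with the others at 0.614 to 0.662 TPM. In Mmp19, a 5-week WT male was highest at 1.72 TPM, with the others at 1.13 to 1.21 TPM, and a 5-week Col6a2-/- female, female 4, was lowest at 1.06 TPM, with the others at 2.73 to 3.15 TPM. In Timp1, a 25-week Col6a2-/- male was lowest at 1.62 TPM, with the others at 2.01 to 2.06 TPM.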

How the results depend on the processing

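Counts of called members out of 9 moved by over 1.5 times as follows, and the cause was not tested. A filter at 5 TPM, which left 6 members, gave 3 at 5 weeks, 2 at 25 weeks, 3 in 5-week females, 0 in 5-week males (where Timp1 was still tested) and 3 with age in Col6a2-/- muscle. In that order, calls over all 6573 genes left were 1553, 344, 722, 295 and 2263, beside 3253, 603, 1648, 645 and 4389 of 12817. No filter, with 10 members tested as Mmp12 entered, gave 3 in 5-week females (Mmp12, Mmp19 and Timp1) and 1 in 25-week males (Mmp12). Calls over all genes there went from 1648 and 388 of 12817 to 1417 and 133 of 32958. Scaling without mitochondrial and Rn7s genes gave 3 in 5-week females, where calls over all genes went from 1648 to 854. A pseudocount of 0.1 gave 1 in 5-week males, where calls over all genes went from 645 to 552. Array weights gave 6 in 25-week males and 5 with age in WT muscle, where calls over all genes also went from 388 to 2437 and from 2536 to 4166. Between sexes, 1 member (Mmp3) was called after median-of-ratios scaling, scaling without mitochondrial and Rn7s genes, quantile normalization or array weights. Calls over all genes between sexes went from 391 to 803, 570, 828 and 925, in that order. Leaving out 1 library gave 5 to 6 called members at 5 weeks, 3 to 5 at 25 weeks, 2 to 6 in 5-week females, 1 to 2 in 5-week males, 0 to 4 in 25-week males, 3 to 5 with age in WT, 5 to 6 with age in Col6a2-/- muscle, 0 to 1 between sexes and 0 in the others. Shares of all genes called in those fits are not given here, apart from the 34.6% without Col6a2-/- female 4 at 5 weeks. Sign changes occurred in differences that were not called. Mmp9 at 25 weeks gave -0.0714 after quantile normalization and -0.0109 to 0.136 when 1 library was left out. Timp3 at 25 weeks gave -0.112 after median-of-ratios scaling, -0.0507 without mitochondrial and Rn7s genes, -0.0323 after quantile normalization, and -0.0395 to 0.0635 when 1 library was left out. Leaving out 1 library at 5 weeks gave -0.142 to 0.0368 for Timp3 and -0.265 to 0.0878 for Timp4.

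Replicate numbers showed no clear pairing of the mice. Deviations of same-numbered mice had a mean correlation of 0.0308 (-0.340 to 0.349, 35 of 112 pairs over 0.1), beside -0.0101 for mice of different numbers. Such means cannot exclude a batch shared by some of the mice. With a replicate block the counts of called members were 5 at 5 weeks, 4 at 25 weeks, 5 and 2 in females and males at 5 weeks, 0 and 3 at 25 weeks, 3 and 5 with age in WT and Col6a2-/- muscle, and 0 in the other comparisons, all equal to those without it. The median deposited coverage of Mmp3, Mmp9, Mmp12 and Mmp19 was 6.16, 3.34, 0.263 and 8.41, which limits the precision of their values.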
